A study of Rattus norvegicus with 6 samples.

Results

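Actb, Hsp90ab1, Rpl13a, Rplp1, B2m, Hprt1 and Gusb are 7 housekeeping genes that carry reference probes on a rat long non-coding RNA and mRNA array. Each was found as the probe of the maker's 30-spot reference set whose transcript accession matches the gene in the RefSeq table, so that these are 7 of the 38 genes named through an accession and 7 of 38321 non-control probes. The arrays measured total RNA of carotid arteries of adult male Sprague-Dawley rats of 250 to 300 g. In the injured group (n = 3) a 2F balloon catheter had stripped the inner lining of the right common carotid artery under 50 mg/kg phenobarbital, and the artery was taken 14 days later. The control group (n = 3) is called sham in some labels and normal or uninjured in others. Each sample was labelled with Cy3 and put on 1 array, and whether the 3 samples of a group are 3 rats is not stated, so p-values cover only the spread among these samples. Over whole arrays, sham 3 was the dimmest, its 75th percentile being 89.5 intensity units where the remaining arrays had 214 to 284. The share of non-control probes well above background was highest on injured 2 (70.1%) and injured 3 (67.5%). It was lowest on sham 3 (51.5%) and 57.0% to 63.2% on the other arrays. None of the 48 listed markers of smooth muscle, endothelium, fibroblasts, leukocytes or other cell types is among the named probes, so the labelled tissue could not be checked against markers. In such whole arteries fewer cells of a type and less RNA per cell cannot be told apart.

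Housekeeping genes serve functions that nearly every cell needs, and their transcripts are used as the denominator when the amount of another transcript is compared between samples. A reference is useful only if its own level stays the same across the samples compared, which is commonly judged from how steady its level is and how steady its ratio to other references is. An injured artery wall loses endothelium and gains dividing smooth muscle cells and new matrix. The 7 genes serve different functions. Actb encodes beta-actin of the cytoskeleton, Hsp90ab1 a constitutive protein chaperone, and Rpl13a and Rplp1 proteins of the large ribosomal subunit. B2m encodes the small invariant subunit of class I antigen-presenting complexes, Hprt1 an enzyme of purine salvage, and Gusb a lysosomal glucuronidase.

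The sequences that lie before the start in RefSeq's promoter table were set side by side for 2 genes whose signals were low on the same arrays (Hsp90ab1 and Rpl13a) and for the 2 genes whose signals kept the closest ratio (Rplp1 and Gusb). That table, of build GRCr8, held an entry for 6 of the 7 genes, all except Actb. The 250 bases before the table's start are printed 5′ to 3′ on the gene's strand, with matches to 6 searched motifs in capitals. The table's start is not always the outermost one: in RefSeq's gene table of the same build, 174 of the 250 bases of Hsp90ab1, 62 of Rpl13a and 26 of Gusb lie inside the listed gene, and none of Rplp1 do.
Hsp90ab1 (chr9:22930173-22930422, plus strand): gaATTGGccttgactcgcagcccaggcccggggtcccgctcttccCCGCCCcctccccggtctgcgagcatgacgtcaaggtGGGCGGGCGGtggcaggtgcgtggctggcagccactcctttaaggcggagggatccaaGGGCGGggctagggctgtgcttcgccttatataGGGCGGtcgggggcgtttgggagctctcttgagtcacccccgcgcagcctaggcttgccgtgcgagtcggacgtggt
Rpl13a (chr1:104748914-104749163, minus strand): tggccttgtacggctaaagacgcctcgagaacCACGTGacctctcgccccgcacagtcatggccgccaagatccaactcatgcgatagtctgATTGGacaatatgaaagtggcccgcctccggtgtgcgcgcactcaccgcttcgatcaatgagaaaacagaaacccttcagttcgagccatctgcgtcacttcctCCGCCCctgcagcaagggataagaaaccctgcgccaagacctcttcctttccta
Rplp1 (chr8:71290873-71291122, minus strand): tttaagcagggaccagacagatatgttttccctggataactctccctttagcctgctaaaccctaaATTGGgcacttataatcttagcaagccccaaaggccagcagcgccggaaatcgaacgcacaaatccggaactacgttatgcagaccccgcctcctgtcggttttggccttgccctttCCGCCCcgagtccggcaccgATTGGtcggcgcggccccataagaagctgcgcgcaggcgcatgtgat
Gusb (chr12:32337057-32337306, plus strand): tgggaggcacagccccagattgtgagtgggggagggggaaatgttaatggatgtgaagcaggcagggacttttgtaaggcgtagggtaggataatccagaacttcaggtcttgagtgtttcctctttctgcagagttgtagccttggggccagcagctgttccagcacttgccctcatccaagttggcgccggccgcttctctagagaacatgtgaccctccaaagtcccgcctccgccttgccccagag
The motifs, searched on both strands, were TATAAA of core promoters, CCAAT of upstream elements, GGGCGG for the GC box, CACGTG for the E-box, TTCNNGAA for the heat shock element core, and the interferon-stimulated response element core. Hsp90ab1 had 5 matches to the GC box, of which 2 overlapped and 4 lay inside the listed gene, and 1 to the CCAAT motif. Rpl13a had 1 match each to the GC box (inside the listed gene), the CCAAT motif and the E-box, and Rplp1 had 1 to the GC box and 2 to the CCAAT motif. Gusb had none of the 6. Over 33469 promoters of the same length, 30.5% held the GC box, 34% the CCAAT motif, 5.59% the E-box, 12.9% the core promoter motif and 7.48% the heat shock core. Of the genes not printed, B2m had 1 match each to the core promoter motif, the CCAAT motif (inside the listed gene) and the interferon-stimulated core. That last core is held by 0.251% of promoters. Hprt1 had 5 matches to the GC box and 1 to the heat shock core, which Hsp90ab1 did not hold. A match describes the letters only.

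Actb, Hsp90ab1 and Rpl13a were low on the same arrays, sham 3, injured 2 and injured 3, and high on the other 3. The processed signal of Actb was 6030, 6960 and 222 intensity units for sham 1 to 3 and 4806, 180 and 222 for injured 1 to 3. Injured 1 thus lay close to sham 1 and sham 2, and the groups overlapped. The position of the Actb probe among all non-control probes of its array, which needs no scaling, was at the 95.2, 95.3 and 83.3 percentile in sham and at the 94.5, 73.1 and 74.5 percentile in injured arteries. Hsp90ab1 had signals of 4234, 4807 and 442 units for sham 1 to 3 and 4158, 335 and 334 units for injured 1 to 3. Its percentiles were 93.9, 93.9 and 87.9 for sham 1 to 3 and 94.0, 79.5 and 78.9 for injured 1 to 3. The chaperone was low on the same 3 arrays, over a narrower span of ranks than Actb. Rpl13a had signals of 39069, 44039 and 3862 units for sham 1 to 3 and 45176, 5228 and 5556 units for injured 1 to 3. It stayed within the top ranks of every array, from the 95.6 to the 99.2 percentile, although its signal moved over an 11.7-fold range.

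Relative to the array's 75th percentile, B2m was steady over the sham arrays and low on injured 2 and injured 3. On a log2 scale with the array's own 75th percentile as 0, it measured 7.68, 7.37 and 7.42 for sham 1 to 3 and 7.80, 6.20 and 6.51 for injured 1 to 3. Actb, Hsp90ab1 and Rpl13a were low on sham 3 on this scale too, whereas B2m was not lower there than on sham 2. Without scaling, the signal of B2m was low on sham 3 as well. It was 15311 units there, 15718 on injured 2 and 20949 on injured 3, against 46916 to 50930 on the other arrays. Hprt1 measured 4.58, 4.91 and 5.69 for sham 1 to 3 and 4.47, 4.41 and 4.74 for injured 1 to 3. Its highest value came from sham 3, and the sham and injured ranges overlapped only between 4.58 and 4.74.

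Rplp1 and Gusb moved least, and their small movements ran in parallel. Rplp1 measured 8.49, 8.36 and 9.16 for sham 1 to 3 and 8.89, 8.39 and 8.50 for injured 1 to 3, on the same log2 scale. Gusb measured 2.16, 2.09 and 2.82 for sham 1 to 3 and 2.72, 2.34 and 2.32 for injured 1 to 3. Both were highest on sham 3 and next on injured 1, and for both the groups overlapped. Rplp1 ranked between 40 and 71 from the top among all non-control probes on the 6 arrays. It was not saturated: its brightest spot reached 15.3% of the scanner's saturation value.

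**Figure D1:**
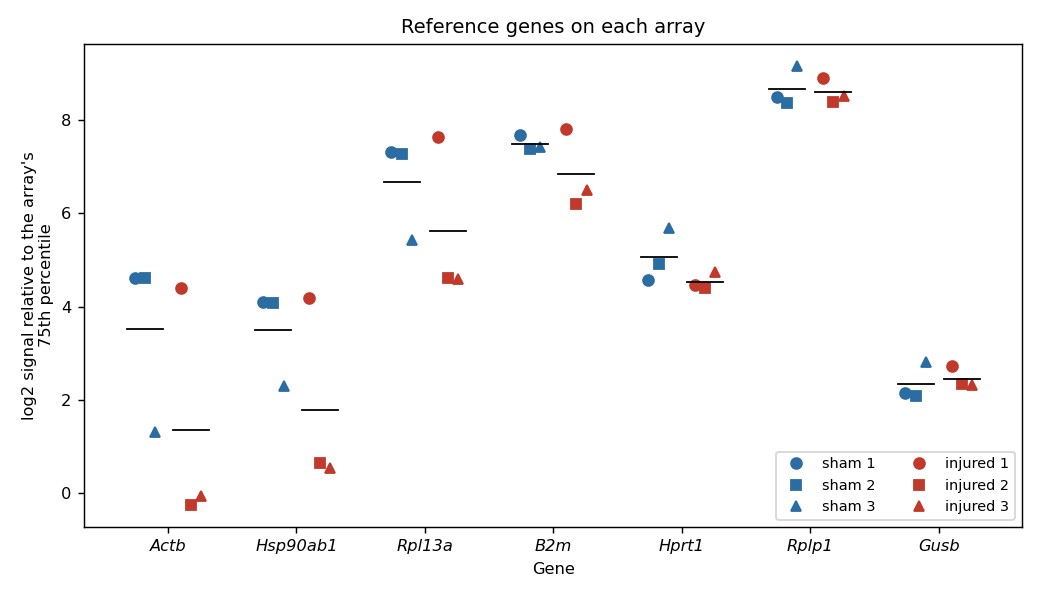
Log2 processed signal of the 7 genes relative to each array's 75th percentile (vertical axis) for each gene (horizontal axis), with sham arrays in blue, injured arrays in red, the replicate number by marker shape and the group mean as a line. Actb ran from -0.24 to 4.62 and Gusb from 2.09 to 2.82.

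The 30 spots of a probe are spread over the array, and their spread measures the technical precision of each value. Across the 7 genes and 6 arrays the SD over spots was 0.053 to 0.162 log2 units, or a coefficient of variation of 3.66% to 11.2%. All 1260 spots were well above background, and 14 were left out as outliers. The SD between arrays was 21.8 times the largest spot SD for Actb, 20.01 times for Hsp90ab1 and 14.6 times for Rpl13a. The same ratio was 4.02 for B2m, 3.33 for Hprt1, 2.94 for Rplp1 and 2.0 for Gusb. Spot noise is thus far smaller than the array-to-array differences of the first 3 genes, and the standard error of a spot mean, at most 0.030, is small for every gene. These spots are repeats on 1 array and not replicates of a condition.

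The SD over the 6 arrays put the genes in the order Gusb (0.30), Rplp1 (0.32), Hprt1 (0.47), B2m (0.65), Rpl13a (1.42), Hsp90ab1 (1.74) and Actb (2.37). The median SD was 1.07 over 24473 tested probes with a value on every array, so 4 of the 7 genes varied less than the median probe and 3 varied more (4 varied more with normexp background correction). Actb varied more than 91.2% of tested probes, Hsp90ab1 more than 76.5% and Rpl13a more than 65.2%. Gusb varied more than 3.21%, Rplp1 more than 4.15%, Hprt1 more than 12.7% and B2m more than 25.2%. As folds between the highest and the lowest array, the scaled signal spanned 29.1-fold for Actb, 12.5-fold for Hsp90ab1, 8.20-fold for Rpl13a, 3.03-fold for B2m, 2.44-fold for Hprt1, 1.74-fold for Rplp1 and 1.66-fold for Gusb. The places of neighbours such as Gusb and Rplp1, whose SDs differ by 0.02, are not an established order. The spread within groups, pooled over sham and injured, gave the same order, from 0.33 for Gusb to 2.3 for Actb, so the wide spread of Actb lay among arrays of the same label.

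In the authors' deposited table, which is normalized between arrays, the picture was close. Actb had values of 12.14, 12.17 and 9.08 for sham 1 to 3 and 11.88, 7.39 and 7.57 for injured 1 to 3 there, and an SD of 2.3. Rplp1 had 16.29, 16.28 and 16.53 for sham 1 to 3 and 16.44, 16.16 and 16.19 for injured 1 to 3, and an SD of 0.14. The SDs of the others were 0.34 for Gusb, 0.42 for B2m, 0.55 for Hprt1, 1.20 for Rpl13a and 1.66 for Hsp90ab1. Rplp1 thus came first and B2m passed Hprt1, while Actb, Hsp90ab1 and Rpl13a kept the last 3 places. The value of Hprt1 on sham 3 was 13.53 in that table, above 11.94 to 12.51 on the other 5 arrays. Rplp1 and Gusb ran less in parallel there, although both were again highest on sham 3 and next on injured 1. Rplp1 was lowest on injured 2 (16.16), where Gusb (10.22) lay above its values on sham 1 (9.70) and sham 2 (9.65). The SD of their log2 ratio was 0.30 in that table, larger than the SD of Rplp1 itself.

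**Figure D2:**
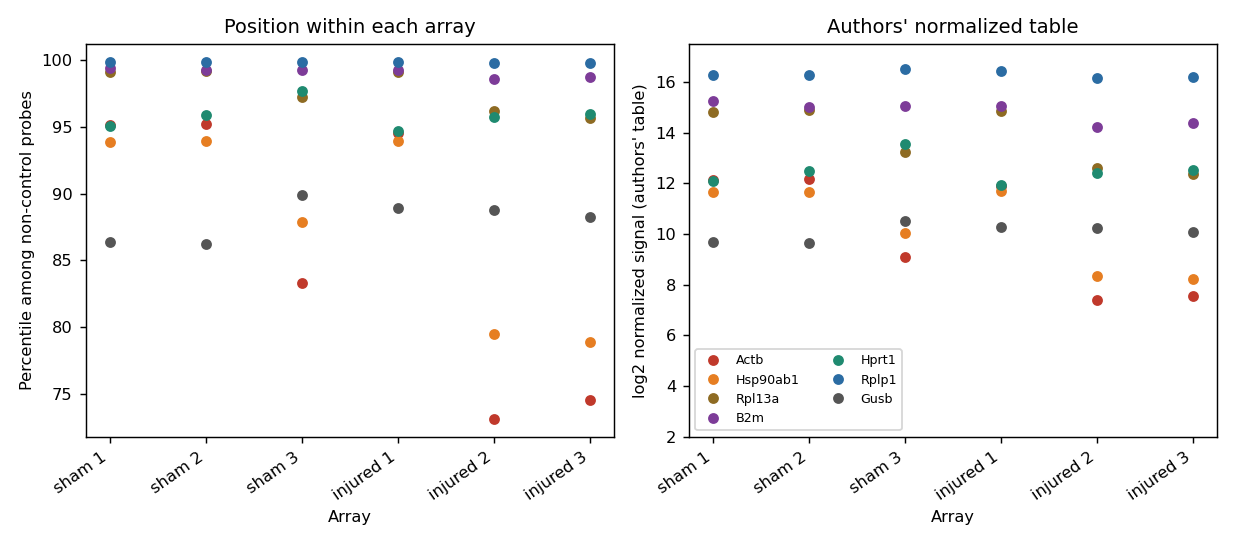
Left, the percentile of each gene's probe among all non-control probes of the same array. Right, the log2 value of each gene in the authors' normalized table. Arrays stand on the horizontal axis and each gene has a colour. Actb, Hsp90ab1 and Rpl13a were low on sham 3, injured 2 and injured 3 in both panels, with Actb at the 73.1 percentile on injured 2.

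The ratio of 2 genes on the same array is free of the array's brightness, and the 21 possible pairs were compared by the SD of their log2 ratio over the 6 arrays. Rplp1/Gusb was the steadiest pair, with an SD of 0.11. Its log2 ratio was 6.33, 6.27 and 6.34 for sham 1 to 3 and 6.17, 6.04 and 6.19 for injured 1 to 3, a total range of 0.30. Rplp1/Hprt1 followed with an SD of 0.36, Hsp90ab1/Rpl13a with 0.41 and Hprt1/Gusb with 0.43. Hsp90ab1 and Rpl13a each moved far more than their ratio did, which was -3.21, -3.20 and -3.13 for sham 1 to 3 and -3.44, -3.96 and -4.06 for injured 1 to 3. Actb/Hprt1 was the least steady pair, with an SD of 2.47 and log2 ratios of 0.04, -0.30 and -4.38 for sham 1 to 3 and -0.08, -4.65 and -4.79 for injured 1 to 3. The level of beta-actin against the purine salvage enzyme hence differed by a range of 4.83 log2 units between arrays. The median SD over the 21 pairs was 1.16.

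Averaged over its 6 ratios, a gene's pair SD was 0.97 for B2m, 1.1 for Rplp1, 1.13 for Rpl13a, 1.15 for Gusb, 1.23 for Hprt1, 1.27 for Hsp90ab1 and 1.80 for Actb. By this measure B2m came first and Rpl13a stood ahead of Gusb and Hprt1, whereas both had larger SDs over arrays than Gusb, Rplp1 and Hprt1. The 2 measures of stability hence ordered the genes differently. Dropping the gene with the highest average pair SD at each step removed Actb, Hsp90ab1, Rpl13a, B2m and Hprt1 in turn and left Rplp1 and Gusb. In the authors' table the same procedure left the same pair, with an SD of 0.30, and removed Hprt1 before B2m.

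**Figure D3:**
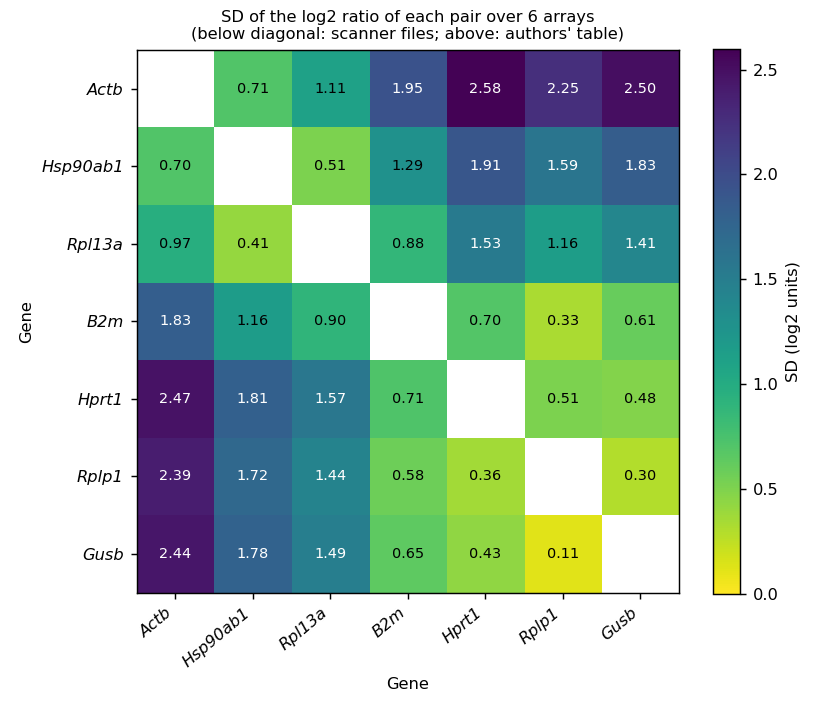
SD over the 6 arrays of the log2 ratio of each pair of genes, from the scanner files below the diagonal and from the authors' table above it. The lowest cell in each triangle is Rplp1/Gusb (0.11 and 0.30) and the highest is Actb/Hprt1 (2.47 and 2.58).

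Between injured and sham arteries no member passed the test. In limma at a Benjamini-Hochberg adjusted p under 0.05, 0 of the 7 members and 0 of 24718 tested probes were called (0%), and at an unadjusted p under 0.05 the counts were 0 of 7 and 1094 (4.43%). The log2 fold change was -2.15 ± 1.56 for Actb (SE; 95% interval -5.93 to 1.63; limma adjusted p = 0.599). It was -1.71 for Hsp90ab1 (95% interval -4.50 to 1.08) and -1.06 for Rpl13a (-3.57 to 1.45). B2m had -0.65 (-2.04 to 0.74), Hprt1 -0.52 (-1.72 to 0.67), Rplp1 -0.07 (-1.22 to 1.07) and Gusb 0.11 (-1.01 to 1.23), and the signs of these last 2 turned with the scaling (Rplp1 0.21 with none, Gusb -0.17 with the array median). The limma adjusted p-values of these 6 genes were 0.599 to 0.927. Each interval holds 0, and each also holds a change of 1 log2 unit in at least 1 direction, so equal expression is not shown for any of the 7. No member had injured and sham values that lay apart, against 11.8% of tested probes. Within the scan shared by sham 1 and all injured arrays, where the lone sham array has no spread, the differences were -3.25 for Actb, -2.32 for Hsp90ab1, -1.70 for Rpl13a, -0.84 for B2m, -0.04 for Hprt1, 0.10 for Rplp1 and 0.30 for Gusb. Without injured 1 the log2 fold changes were -3.66 for Actb, -2.90 for Hsp90ab1, -2.07 for Rpl13a and -1.13 for B2m, and without injured 2 they were -1.34, -1.14, -0.56 and -0.33, with no member passing in either fit. Without injured 1, 4 of the 7 members and 10982 of 24718 tested probes had an unadjusted limma p under 0.05. The lowest limma adjusted p of a member was 0.058 there. Without injured 2 the counts at an unadjusted limma p under 0.05 were 0 and 308. With array weights, which gave sham 3 and injured 1 the lowest weights, Actb, Hsp90ab1, Rpl13a and B2m passed (4 of 7, against 82.3% of tested probes).

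As ratios, 3 of the 21 pairs had injured values wholly below the sham values, a share near the 11.8% of single tested probes whose groups lay apart in either direction, so the count is no result about the pairs. The log2 ratio of Hsp90ab1 to Rpl13a was lower in injured arteries by 0.64 ± 0.19 (SE), with a mean of -3.18 in sham and -3.82 in injured arteries. Hprt1/Gusb averaged 2.71 ± 0.25 in sham and 2.08 ± 0.33 in injured arteries, and Rplp1/Gusb 6.31 ± 0.04 and 6.13 ± 0.08 (SD, n = 3 each). The last of these was the smallest of the 3 differences, at -0.18 ± 0.05 (SE), and was -0.35 in the authors' table and with quantile normalization. An exact two-sided permutation test of 3 against 3 arrays cannot go below p = 0.1, which these 3 pairs reached, and the adjusted p over the 21 pairs was 0.28. In the authors' table none of the 21 pairs had groups that lay apart. The count of such pairs was 15 without sham 3 and 16 without injured 1, and 3 or 4 without any 1 of the other arrays. Groups lie apart more easily when they hold fewer arrays, and the share of tested probes was not computed for these sets. These counts are thus no result about the pairs either.

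Each gene was then used as the only reference, by subtracting its log2 value from all probes of the array. For a probe with a value on every array, this subtracts the reference gene's own fold change from that of the probe. The medians and shares that follow thus largely restate the members' fold changes given above. The median log2 fold change over the 24718 tested probes, 0.10 with the 75th percentile, became 2.24 with Actb, 1.80 with Hsp90ab1, 1.15 with Rpl13a, 0.75 with B2m, 0.62 with Hprt1, 0.17 with Rplp1 and -0.007 with Gusb. The share of probes with a positive fold change was 95.4% with Actb, 90.4% with Hsp90ab1, 78.4% with Rpl13a, 68.1% with B2m, 64.9% with Hprt1, 54.1% with Rplp1 and 49.8% with Gusb. The mean of all 7 genes gave a median of 0.96 and a share of 73.6%. The median standard error of a fold change was 1.73 with Actb, against 0.78 with the 75th percentile and 0.83 to 0.88 with Rplp1, B2m, Hprt1 or Gusb. In limma no probe passed with any of these references, and 196 probes (with Actb) to 1947 (with Hprt1) had an unadjusted p under 0.05.

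Of 40 other commonly used reference genes and partners of the members, 3 are among the named probes, each with a 30-spot probe: Ldha, a glycolytic enzyme, Pgk1, another, and Sdha, a subunit of respiratory complex II. None of the 3 passed in limma, and their SDs over the arrays were 0.86, 0.75 and 0.58, between those of Hprt1 and Rpl13a. Read against the 7 members their fold changes differed widely, each being the gene's own fold change minus that of the member. For Ldha the log2 fold change was 2.96 ± 1.65 (SE) with Actb as reference, 1.46 ± 0.52 against B2m and 0.70 ± 0.69 against Gusb. Pgk1 had 2.41 ± 1.65 against Actb, 0.91 ± 0.48 against B2m and 0.15 ± 0.65 against Gusb. Sdha had 1.98 ± 2.31 against Actb, -0.09 ± 0.57 against Rplp1 and -0.27 ± 0.57 against Gusb, so even its sign turned with the reference. Only against B2m did the injured values of Ldha and Pgk1 lie wholly above the sham values, at the smallest p the design allows (exact permutation test, two-sided p = 0.1, not adjusted). Of single tested probes, 11.8% had groups that lay apart in either direction, so this is no result about Ldha or Pgk1. A second probe of Ldha, with 10 spots, had an SD of 2.26 and was low on sham 3, injured 2 and injured 3, so the 2 probes of that gene disagree.

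**Figure D4:**
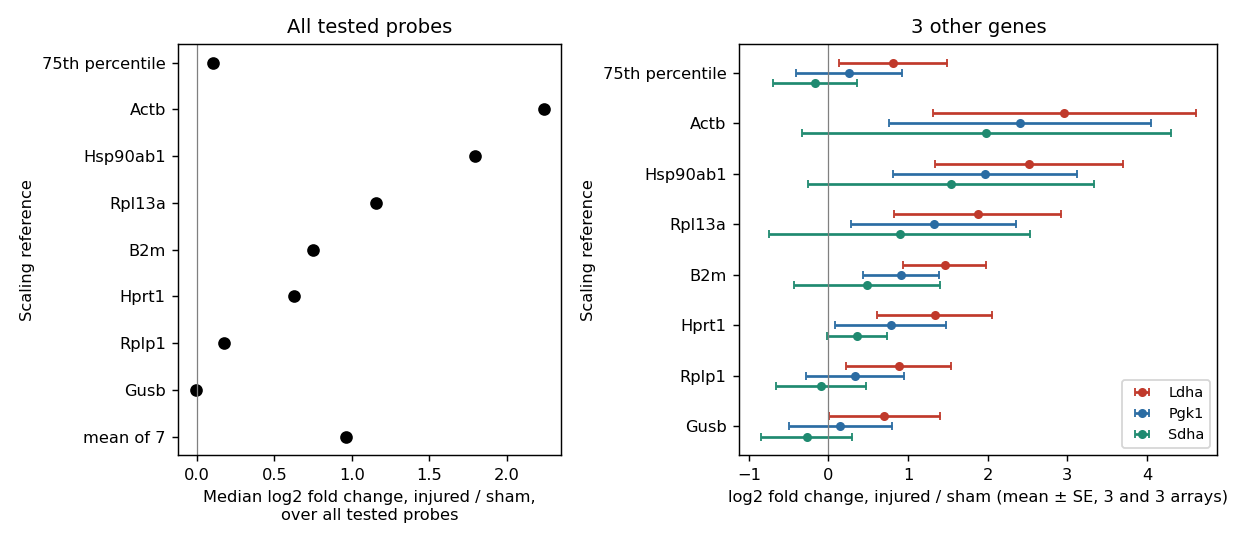
Left, the median log2 fold change of injured over sham arteries across all tested probes for each scaling reference. Right, the log2 fold change of Ldha, Pgk1 and Sdha against each reference, with the mean and SE of 3 injured and 3 sham arrays. The median moves from -0.007 with Gusb to 2.24 with Actb, and Ldha from 0.70 to 2.96.

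Among the other 23 tested probes with a gene name, the nearest patterns over the 6 arrays were found by Pearson's r, as a description. Actb was nearest to Mex3c (r = 0.990), Eif4b (0.986) and Ndfip1 (0.983), and Rpl13a to Eif4b (0.997), Mex3c (0.996) and Nat1 (0.985). Eif4b is a translation initiation factor, Mex3c an RNA-binding ubiquitin ligase and Ndfip1 an adaptor of Nedd4-type ligases. Hsp90ab1 was nearest to Nat1 (0.998), Ndfip1 (0.996) and Pdk3 (0.996), a kinase of the pyruvate dehydrogenase complex. B2m was nearest to Odf2l (0.964), Pld1 (0.961) and Pdcd10 (0.961). The points are the same 6 arrays throughout. Over all tested probes, 19.4% correlated above 0.95 with Actb, 20.1% with Hsp90ab1 and 18.4% with Rpl13a. The shares were 5.11% for B2m, 0.266% for Hprt1 and 0.0409% each for Rplp1 and Gusb. No named gene came close to the last 3: the highest r was 0.645 for Hprt1 with Sdha, 0.389 for Rplp1 with Trim2 and 0.292 for Gusb with Pgk1. Rplp1 and Gusb themselves correlated at 0.936.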

How the data were processed

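Each array's deposited file lists an intensity for every spot, written by Agilent Feature Extraction (version 11.0.1.1, per the file headers), background-subtracted and detrended within each array and not scaled between arrays. The files also deposited other columns, among them median spot and background signals and flags of 0 or 1 set by that software, per the file headers. The authors also deposited log2 values for the 6 arrays together, normalized between them. The sources used here do not give the method. The table's scale and direction are those of the arrays (r = 0.988 to 0.999 with each array's own log2 signal, column medians 4.79).

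Log2 processed signals were averaged over the spots of a probe without outlier-flagged spots, and each array's 75th percentile was subtracted. Probes well above background on at least 3 of 6 arrays were tested (24718 of 38321) by limma (version 3.58.1, R 4.3.3) with lmFit and eBayes and no covariates. Of 44 probes with a RefSeq accession, 39 matched a symbol in the GRCr8 table. The files put sham 1 and all injured arrays on a shared scan, taken as 1 slide, and sham 2 and sham 3 on scans of their own. The number of arrays limits the precision. Tests were also run on simulated data, in part built on the measured means and spreads. All 7 genes are named, each with the 3 named probes of highest r. The genes, lists and alternatives were chosen with earlier results of these data known.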

Additional observations from a re-analysis of the deposited data

How the results depend on the processing

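Actb had the highest SD of the 7 genes, and Actb, Hsp90ab1 and Rpl13a the 3 highest, in 16 of 16 settings (4 other scalings, another background correction, 2 other spot summaries, the authors' values, each array left out, and sham 3 and injured 1 left out together). Rplp1/Gusb was the closest pair under quantile normalization, normexp, the other spot summaries, the authors' values and every set of arrays left out; the remaining scalings cannot change a ratio. Rplp1 and Gusb had the 2 lowest SDs in 14, and Hprt1 had the lowest with no scaling and without sham 3. Leaving out 1 array gave SDs of 0.21 to 0.53 for Hprt1.

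Limma called 20335 probes and 4 members with array weights, and 18151 probes and 4 members without both sham 3 and injured 1 (73.6% of tested probes), a setting chosen with the results known. With the replicate block it called 3 probes and 0 members. The deviations of same-numbered arrays correlated at 0.83, -0.57 and 0.82. With 3 arrays per group these values cannot settle whether the numbers pair the samples, and the labels do not say. The count of probes and of members called was 0 in every other setting run, including each array left out (0 to 0). Pairs whose groups lay apart numbered 1 with quantile normalization, 0 with the authors' values, 20 without both sham 3 and injured 1, and 3 to 16 with 1 array left out. For the sets with arrays left out the share of tested probes lying apart was not computed, so those counts are no result about the pairs.

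The fold changes of Actb, Hsp90ab1, Rpl13a, B2m and Hprt1 stayed negative in 22 of 22 settings that did not scale to a member. Among the 22, the other probe filters, the looser threshold, another variance model and the replicate block cannot change a fold change. The size of the fold changes moved: with 1 array left out they ran from -3.66 to -1.34, -2.90 to -1.08, -2.07 to -0.55, -1.13 to -0.33 and -0.76 to -0.21, and Actb reached -4.65 with array weights and -4.77 on leaving out sham 3 and injured 1 together. That of Rplp1, -0.23 to 0.17 with 1 array left out, was positive with the 75th percentile of detected probes (0.12), no scaling (0.21), normexp (0.012), array weights (0.057), the slide block (0.10), and without sham 3 (0.17), injured 2 (0.030) or both sham 3 and injured 1 (0.020). That of Gusb was negative with median scaling (-0.17) and without sham 2 (-0.027) or injured 1 (-0.025). For scaling to a member or to the mean of the 7, only the genes whose sign turned are listed. Gusb, positive with the 75th percentile, is not listed because it stayed positive against every other member. Scaled to Actb, the values were positive for Hsp90ab1 (0.44), Rpl13a (1.09), Rplp1 (2.08), B2m (1.5) and Hprt1 (1.63). Scaled to Hsp90ab1 they were positive for Rpl13a (0.64), Rplp1 (1.63), B2m (1.05) and Hprt1 (1.18), and scaled to Rpl13a for Rplp1 (0.99), B2m (0.41) and Hprt1 (0.54). Rplp1 (0.58) and Hprt1 (0.13) were positive against B2m, Rplp1 (0.45) against Hprt1, and Rplp1 (0.79), B2m (0.21) and Hprt1 (0.34) against the mean of the 7. The cause of the changes with array weights was not tested.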

Other observations

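Of the 12 probes with 30 spots, 2 carry a transcript accession without a symbol in the tables used here. The first measured 1.17, 1.16 and 0.75 for sham 1 to 3 and 1.17, -0.71 and -0.49 for injured 1 to 3, in log2 units relative to the 75th percentile. It was low on injured 2 and injured 3, as B2m was. The second measured 1.49, 1.40 and 1.40 for sham 1 to 3 and 1.61, 0.46 and 3.35 for injured 1 to 3, with the lowest and the highest value both in the injured group.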
